A study of Mus musculus with 12 samples.

Results

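A group of 10 regulators and markers of blood stem and progenitor cells, Hoxa7, Hoxa9, Hoxa10, Meis1, Mecom, Hhex, Tal1, Lyl1, Lmo2 and Cd44, was followed through thymocyte development in normal and Ikaros-deficient mice. They were taken by gene symbol, with every probe set that the platform annotation assigns to one of these symbols, whatever its signal. That gave 19 probe sets of the 45099 on the array, with at least 1 for each of the 10 genes. A probe set is a group of short array oligonucleotides against 1 transcript, and its value here is a log2 signal, so that a difference of 1 is a 2-fold difference.

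RNA from sorted mouse thymus cells was hybridised to 12 Affymetrix arrays, 2 for each of 6 groups. The groups cross 2 genotypes, wild type (WT) and IkL/L, with 3 stages, DN3, DN4 and DP, which are successive steps of T cell development named for CD4 and CD8, absent at the double-negative (DN) stages and both present at the double-positive (DP) stage. All groups came from thymus, no group carried a further allele or treatment in the labels, and cells of 3 mice were pooled for sorting. IkL is a hypomorphic allele of Ikzf1, the gene of the zinc finger protein Ikaros, and it is a germline allele, so all cells of the animal carry it. The labels give neither strain, age, sorting gate nor whether the arrays of a group came from separate pools. The p-values therefore measure the spread between arrays, which may be technical in the WT groups. In each IkL/L group the 2 arrays differed widely in Y-linked signal (given below), so they came from pools of mice that differed in sex.

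HOXA proteins are homeodomain transcription factors that, with the cofactor MEIS1, keep stem and progenitor cells in a self-renewing state, and they are normally lowered as cells differentiate. TAL1 and LYL1 are basic helix-loop-helix factors that bind DNA with E proteins and are joined by LMO2 into one complex, which is active in stem cells and early thymic progenitors. These same genes are known as oncogenes in T cell leukaemia, and mice with little Ikaros develop such leukaemia. CD44 is a hyaluronan receptor that is high on the earliest thymic progenitors, lost before DN3, and gained again by activated T cells.

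Stage markers ran with the labels, except that the mean of DN3-stage genes did not fall from DN4 to DP in IkL/L. The mean log2 signal of 8 DN3-stage genes was 11.2 on both WT DN3 arrays. It was 9.05 and 9.35 at WT DN4 and 8.61 and 8.77 on the WT DP arrays. In IkL/L it was 10.9 and 10.7 at DN3, 9.27 and 9.52 at DN4, and 9.44 and 9.68 at DP. The mean of 5 DP-stage genes ran from 6.83 to 7.11 on the DN3 arrays. It ran from 7.72 to 8.60 on the DN4 arrays and from 11.8 to 12 on the DP arrays. Ikzf1 signal was between 11.8 and 12.4 on WT arrays and between 11.2 and 11.8 on IkL/L arrays, lower by 0.65, 0.63 and 0.70 on the log2 scale at DN3, DN4 and DP (limma adjusted p = 0.0187, 0.0202 and 0.00979). The second arrays of the 3 IkL/L groups stood apart by a mean of 3 Y-linked probe sets of 3.07 to 3.45 against 6.59 to 8.36 on the other 9 arrays, so results are also given without them where a call changed. The actin 3′ minus 5′ signal, a measure of RNA integrity and labelling, was 2.86 on IkL/L DN3 replicate 2 against 1.92 to 2.15 on the other DN3 arrays, and 2.86 on WT DP replicate 1 against 2.26 to 2.64 on the other DP arrays. At DN4 it was 2.39 on IkL/L DN4 replicate 2 against 1.74 to 1.93 on the other DN4 arrays. The part of this measure in the DN3, DN4 and DP results was not tested. Medians of the arrays lay between 5.14 and 5.22, and replicate arrays correlated at r = 0.983 to 0.995 across probe sets.

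Ikaros binds DNA with the core letters TGGGAA. Because Hoxa7, Hoxa9 and Cd44 are the members with a called difference at a single stage, the 250 bases before their RefSeq starts (GRCm38.p6) are shown, each 5′ to 3′ on the minus strand with TGGGAA, or its reverse complement TTCCCA, in capitals. The regions are chr6:52218574-52218823 for Hoxa7, chr6:52227371-52227620 for Hoxa9 and chr2:102901666-102901915 for Cd44.
Hoxa7: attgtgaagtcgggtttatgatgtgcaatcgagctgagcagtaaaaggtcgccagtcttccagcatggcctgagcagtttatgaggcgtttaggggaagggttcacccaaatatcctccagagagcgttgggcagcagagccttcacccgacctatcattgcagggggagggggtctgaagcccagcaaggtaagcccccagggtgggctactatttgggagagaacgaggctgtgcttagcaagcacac
Hoxa9: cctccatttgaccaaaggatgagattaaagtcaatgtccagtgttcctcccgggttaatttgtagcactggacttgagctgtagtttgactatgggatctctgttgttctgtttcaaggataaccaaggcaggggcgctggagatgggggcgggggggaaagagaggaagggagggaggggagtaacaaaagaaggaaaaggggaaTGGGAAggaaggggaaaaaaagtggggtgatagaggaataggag
Cd44: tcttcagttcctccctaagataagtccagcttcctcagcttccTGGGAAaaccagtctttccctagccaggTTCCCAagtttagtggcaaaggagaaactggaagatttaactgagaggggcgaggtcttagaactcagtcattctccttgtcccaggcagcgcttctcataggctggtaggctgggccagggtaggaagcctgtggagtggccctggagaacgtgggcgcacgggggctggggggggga
The Hoxa7 window held no match, the Hoxa9 window 1 match and the Cd44 window 2, which do not overlap. These letters occurred in 7087 of 32817 mouse promoter windows of the same length, or 21.6%. Windows were found for 9 of the 10 genes, 12 windows in all, and 4 windows in 4 genes (Hoxa9, Meis1, Tal1 and Cd44) held a match. A match is a description of these letters and shows no binding.

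Most of these genes gave little signal in thymocytes. Of the 19 probe sets, 10 were below the median of their array on all 12 arrays, 2 were above it on all 12, and 7 lay between. Over all probe sets of the array, 42.4% were below on all arrays. The 10 were both Hoxa10 sets (1431475_a_at and 1446408_at), all 3 Meis1 sets (1443260_at, 1450992_a_at and 1459423_at), 2 of 3 Mecom sets (1423011_at and 1438325_at), the Hhex set (1423319_at) and 2 of 4 Cd44 sets (1443265_at and 1452483_a_at). Hoxa10, Meis1 and Hhex therefore had no probe set that reached the median on any array. Signal below the median may be mostly background, so a value there is a level of signal and need not be one of RNA. Of 8 markers of early thymic progenitors, cells in which most of these genes are known to be active, 7 were measured and none was called between genotypes, where 1.68%, 2.51% and 2.53% of all genes by their brightest set were called at DN3, DN4 and DP, with 0, 2 and 0 of the 7 at an unadjusted limma p below 0.05. Kit, Flt3, Spi1 and Bcl11a were at or above the median on all 12 arrays, Gata2 on 4, and Cd34 and Mpo on 0. Kit, the stem cell factor receptor, read 7.95 and 7.87 at WT DN3 and 8.43 and 7.27 at IkL/L DN3. The mean of the 7 was between 5.31 and 5.73 on all arrays. Mean levels of lists of B cell, dendritic cell and endothelial genes lay between 4.25 and 5.17, and that of 7 thymic stroma genes between 5.07 and 5.91. Among the stroma genes, Pdgfrb ran from 4.76 to 11.1. It read 8.23 and 8.97 at IkL/L DP against 4.76 and 5.45 at WT DP. Of the 7 stroma genes, 1 was called between genotypes at DP, higher in IkL/L, and none at DN3 or DN4.

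The 2 probe sets that stayed above the median were Hoxa7 (1449499_at), between the 65.9th and the 76.6th percentile of its array, and 1 of the 2 Hoxa9 sets (1421579_at), between the 52.9th and the 58.4th. The other 7 crossed it on few arrays. Cd44 (1423760_at) reached it on 5 arrays, Cd44 (1434376_at) on 4, Lmo2 (1454086_a_at) on 3, Lyl1 (1419120_at) on 2, Hoxa9 (1455626_at) on 2, and Tal1 (1449389_at) and Mecom (1422295_at) on 1 each. A filter that asks for 2 arrays at or above the median keeps 7 of the 19. The second Hoxa9 set passes it through the WT DN3 arrays alone.

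**Figure D1:**
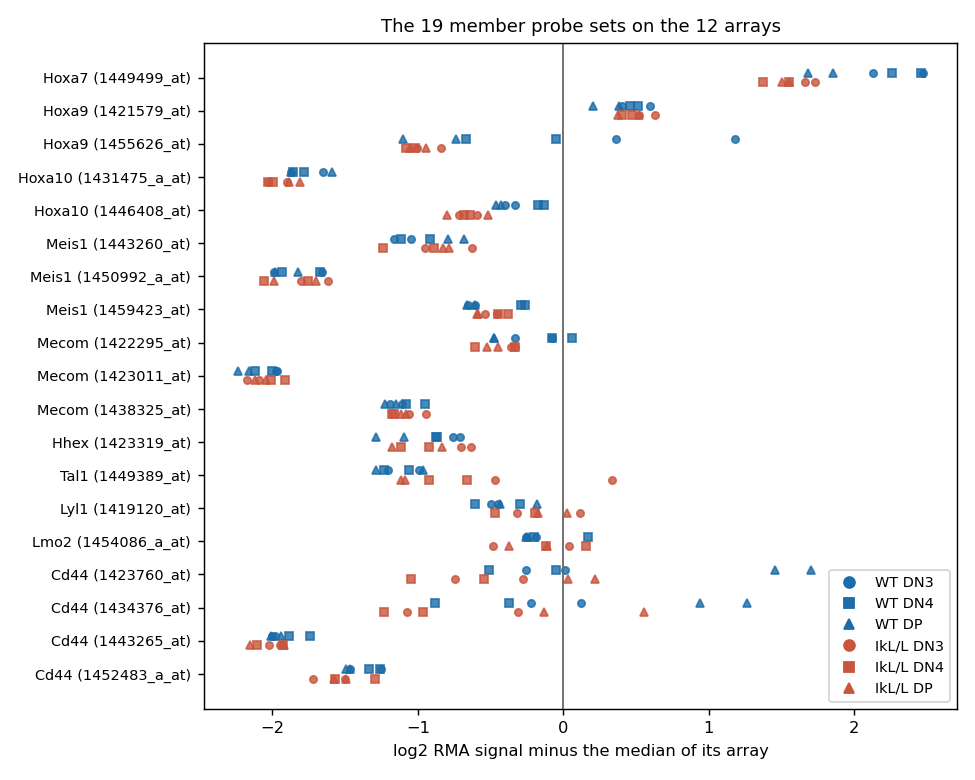
Signal of the 19 probe sets on the 12 arrays, as the log2 value minus the median of the same array (vertical line at 0), with 1 symbol per array, colour for genotype and shape for stage. Hoxa7 and Hoxa9 1421579_at lie right of the line on all 12 arrays, and 10 sets lie left of it on all 12.

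Hoxa7 was lower in Ikaros-deficient cells, with a called difference at DN4, and it had signal above the median on every array. Its log2 signal was 7.26 and 7.61 on the WT DN3 arrays, 7.42 and 7.62 at WT DN4, and 6.89 and 7.0 at WT DP. On the IkL/L arrays it was 6.81 and 6.95 at DN3, 6.70 and 6.55 at DN4, and 6.72 and 6.68 at DP. At each stage both IkL/L arrays were below both WT arrays, and no IkL/L value exceeded 6.95. Over all probe sets, 39.4%, 55.3% and 37.7% had no overlap, in either direction, at DN3, DN4 and DP. In order of mean the groups ran WT DN4 (7.52 ± 0.14, SD, n = 2), WT DN3 (7.44 ± 0.25), WT DP (6.94 ± 0.08), IkL/L DN3 (6.88 ± 0.10), IkL/L DP (6.70 ± 0.02) and IkL/L DN4 (6.63 ± 0.11). WT DN4 and WT DN3 overlapped, as did WT DP with IkL/L DN3, and IkL/L DP with IkL/L DN4.

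Hoxa7 was lower in IkL/L DN4 cells by a log2 difference of -0.89 ± 0.14 (SE), to 53.8% of the WT signal, with a limma adjusted p of 0.0145. It was the 1 of 19 member probe sets called at DN4, where 1.82% of all probe sets were called. The difference was -0.56 at DN3 (adjusted p = 0.126) and -0.24 at DP (adjusted p = 0.61). In these bulk RNA samples, fewer cells that express a gene and less RNA per cell cannot be told apart. The DN4 call was lost when any of the 4 DN4 arrays was left out (adjusted p = 0.0601 to 0.135) or the 3 second IkL/L arrays together (0.117), with differences of -0.80 to -0.99.

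In WT cells Hoxa7 fell from DN4 to DP by 0.58 on the log2 scale (limma adjusted p = 0.00911), while the same step in IkL/L cells was 0.07 (adjusted p = 0.804). The WT call was lost without WT DN4 replicate 2 or WT DP replicate 1 (adjusted p = 0.0751 and 0.0558). The test of whether the genotype difference changes with stage gave an unadjusted p of 0.0241 and an adjusted p of 0.418 in limma. A difference between the 2 steps was thus not called.

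Hoxa9 lies beside Hoxa7 in the Hoxa cluster, and its 2 probe sets disagreed. Set 1455626_at read 5.50 and 6.32 at WT DN3, 4.50 and 5.11 at WT DN4 and 4.47 and 4.05 at WT DP, against 4.15 and 4.37, 4.13 and 4.09, and 4.12 and 4.24 at the same stages of IkL/L. The WT DN3 arrays were the 2 highest of the 12, and the only ones at or above their median. Its order of means was WT DN3 (5.91 ± 0.58, SD, n = 2), WT DN4 (4.80 ± 0.43), WT DP (4.26 ± 0.30), IkL/L DN3 (4.26 ± 0.16), IkL/L DP (4.18 ± 0.09) and IkL/L DN4 (4.11 ± 0.03), and each of the last 4 overlapped its neighbour in that order. Set 1421579_at was between 5.35 and 5.85 on all 12 arrays, with differences between genotypes of 0.12, -0.05 and 0.16 at DN3, DN4 and DP (limma adjusted p = 0.795, 0.864 and 0.774).

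For 1455626_at the IkL/L DN3 signal was lower by a log2 difference of -1.65 ± 0.27 (SE), 31.9% of WT, with a limma adjusted p of 0.023. It was the 1 of 19 member sets called at DN3, where 1.09% of all sets were called. At DN4 the difference was -0.69 (adjusted p = 0.206) and at DP -0.08 (adjusted p = 0.974). The IkL/L level lay well below the array median, so the size of this difference is bounded by the signal floor. Without WT DN3 replicate 2 it was -1.24 (adjusted p = 0.139), and the call was also lost without either IkL/L DN3 array (0.0508 and 0.0522), without the 3 second IkL/L arrays (0.136) and in a fit of the 4 DN3 arrays alone (0.314).

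Within WT cells the step from DN3 to DN4 had a log2 difference of -1.11 for 1455626_at, with a limma adjusted p of 0.0743. The F test for a genotype difference that varies with stage gave an unadjusted p of 0.0082 and an adjusted p of 0.324. Neither was called.

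**Figure D2:**
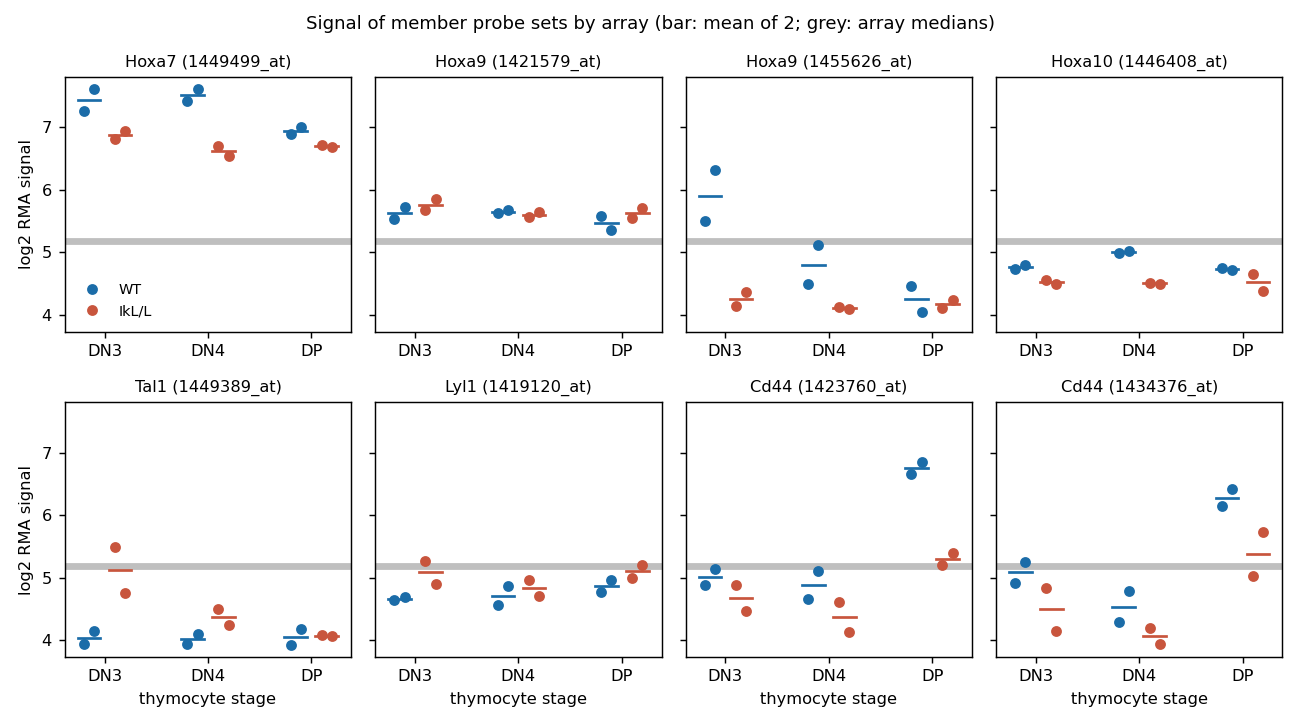
Log2 signal (y axis) of 8 probe sets of Hoxa7, Hoxa9, Hoxa10, Tal1, Lyl1 and Cd44 by stage (x axis), with points for single arrays, short bars for the mean of 2 arrays and a grey band for the array medians, which run from 5.14 to 5.22. WT points lie above IkL/L points at all 3 stages for Hoxa7 and Hoxa10, the Hoxa9 1455626_at points are high at WT DN3, and those of both Cd44 sets at WT DP.

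Hoxa10, the third member of the cluster, had its brighter set (1446408_at) below the median throughout. It read 4.73 and 4.80 at WT DN3, 4.99 and 5.02 at WT DN4 and 4.74 and 4.72 at WT DP. The IkL/L arrays read 4.56 and 4.50 at DN3, 4.51 and 4.49 at DN4, and 4.65 and 4.39 at DP. All 6 IkL/L values were below all 6 WT values, which was so, in either direction, for 1.02% of all probe sets. At DN4 the difference was -0.50 ± 0.11 (SE), with a limma adjusted p of 0.0515. Of the 8 other settings that tested it, 1 gave a call at DN4, the fit with 1 probe set per gene (limma adjusted p = 0.0287). The DN4 difference ran from -0.51 to -0.48 over these settings. With 1 array left out at a time it ran from -0.52 to -0.49 and was mostly not called. The other Hoxa10 set (1431475_a_at) lay between 3.13 and 3.56, with differences of -0.16, -0.19 and -0.12 at the 3 stages, none called.

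Averaged over the 3 stages, a comparison added after the values were seen, 4 of 19 member sets were called, all lower in IkL/L, where 5.04% of all sets were called and 1.91% were called lower. They were Hoxa7 at -0.57 ± 0.08 (SE; limma adjusted p = 0.0032), Hoxa9 1455626_at at -0.81 ± 0.16 (0.0193), Hoxa10 1446408_at at -0.32 ± 0.06 (0.0189) and Cd44 1423760_at at -0.77 ± 0.13 (0.00756). The signal of these 4 was 67.6%, 57.2%, 80.3% and 58.7% of WT. The other sets of these genes were not called. Hoxa9 1421579_at was at 0.08 (limma adjusted p = 0.596), Hoxa10 1431475_a_at at -0.16 (0.233) and Cd44 1434376_at at -0.65 (0.0594). The 2 dim Cd44 sets were at -0.07 and -0.13. By stage, Hoxa9 1455626_at had -1.65 at DN3 and -0.08 at DP, and Cd44 1423760_at -0.34 at DN3 and -1.46 at DP. Hoxa7 and Cd44 1423760_at kept their calls with each of the 12 arrays left out in turn. Hoxa10 and Hoxa9 kept theirs in 8 of 12. Without the 3 second IkL/L arrays together, 3 sets were called. Hoxa7 (adjusted p = 0.0379) and Cd44 (0.0394) were lower, Tal1 was higher by 0.65 (0.0163), and Hoxa9 at -0.86 (0.0935) and Hoxa10 at -0.26 (0.155) were no longer called. With all arrays the averaged Tal1 difference was 0.49 (adjusted p = 0.0575), and it was called in 4 of 7 alternatives. With 1 array left out at a time it ran from 0.36 to 0.61 and was mostly not called. The median over the 19 sets was 0.03, against -0.02 over all sets.

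The other genes of the cluster were tested by their brightest set only, unlike the members. Of 8 listed, 6 were measured and none was called between genotypes at DN3, DN4 or DP. Of all genes by their brightest set, 1.68%, 2.51% and 2.53% were called. At an unadjusted limma p below 0.05 were 1, 1 and 0 of the 6. Hoxa9 by its brightest set (1421579_at) was not called at these stages either. Hoxa5 was above the median on all arrays, at 7.04 to 7.73, and Hoxa3 likewise at 5.34 to 5.81. Hoxa2, Hoxa4, Hoxa11 and Hoxa13 were below it on all. Hoxa4 read 4.22 ± 0.11 at WT DN4 and 3.69 ± 0.02 at IkL/L DN4, a difference of -0.53 (adjusted p = 0.0843), and it fell by 0.53 from DN4 to DP in WT (adjusted p = 0.0126), the 1 of 6 called there, where 36.7% of all genes were called. None of 9 known activators of Hoxa genes was called between genotypes, where 1.68%, 2.51% and 2.53% of all genes were called. At an unadjusted limma p below 0.05 were 1, 2 and 0 of the 9. From DN3 to DN4 in WT cells 2 of the 9 fell and none rose, where 3.79% of genes were called. Kmt2a, which encodes the methyltransferase MLL1, fell by 1.15 (adjusted p = 0.0039) and Mllt3, a gene of the elongation machinery, by 0.72 (adjusted p = 0.0353). From DN4 to DP in WT cells 2 rose and 2 fell, where 36.7% of genes were called. Mllt1, a relative of Mllt3, fell by 1.13 (adjusted p = 0.000713) and Cdx2, a homeobox gene below the median at both stages, by 0.34 (adjusted p = 0.043), while Kmt2a rose by 0.65 (adjusted p = 0.00745) and Mllt3 by 0.46 (adjusted p = 0.0372).

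Meis1, whose product binds DNA with HOX proteins, was below the median on every array with each of its 3 sets. The brightest (1459423_at) lay between 4.48 and 4.90, highest on the WT DN4 arrays at 4.88 and 4.90. It was 0.38 higher at WT DN4 than WT DN3 (limma adjusted p = 0.0676) and fell by 0.35 from WT DN4 to WT DP (adjusted p = 0.0166). That call was lost without either WT DN4 array or WT DP replicate 2, and in a fit of the WT DN4 and DP arrays alone (adjusted p = 0.0569, 0.0748, 0.0895 and 0.0913). Between genotypes its differences were 0.18, -0.14 and 0.04 at DN3, DN4 and DP. The other 2 sets lay between 3.91 and 4.59 (1443260_at) and between 3.12 and 3.60 (1450992_a_at), with no call in any comparison. Of 8 other Hox cofactors 7 were measured, and none was called between genotypes (0 at an unadjusted limma p below 0.05 at each stage). Of all genes by their brightest set, 1.68%, 2.51% and 2.53% were called at DN3, DN4 and DP.

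Mecom encodes EVI1, a zinc finger factor of stem cells. Its brightest set (1422295_at) read 4.80 and 5.06 at WT DN3, 5.09 and 5.22 at WT DN4, 4.73 and 4.67 at WT DP, 4.79 and 4.88 at IkL/L DN3, 4.82 and 4.57 at IkL/L DN4 and 4.72 and 4.66 at IkL/L DP. WT DN4 replicate 2 was the single array at its median. The DN4 difference was -0.46 (limma adjusted p = 0.101). The WT step from DN4 to DP was down by a log2 difference of -0.45 (adjusted p = 0.0194), a call lost without WT DN4 replicate 2 or either WT DP array (0.118, 0.0561 and 0.0825). The other 2 sets lay between 2.97 and 3.24 (1423011_at) and between 3.92 and 4.27 (1438325_at).

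Hhex, a homeobox factor of early blood and endothelial development, lay between 3.92 and 4.58, below the median on all 12 arrays. Its WT arrays read 4.38 and 4.43 at DN3, 4.29 and 4.29 at DN4, and 3.92 and 4.05 at DP. The genotype differences were 0.11, -0.14 and 0.18 (limma adjusted p = 0.821, 0.564 and 0.727).

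Tal1 had the largest positive difference of the members between genotypes, at DN3. Its only set (1449389_at) read 3.93 and 4.14 at WT DN3, 3.93 and 4.10 at WT DN4, and 3.92 and 4.18 at WT DP. In IkL/L it was 5.49 and 4.75 at DN3, 4.49 and 4.25 at DN4, and 4.08 and 4.06 at DP. The group mean was 5.12 ± 0.52 (SD, n = 2) at IkL/L DN3 and 4.37 ± 0.17 at IkL/L DN4, and the other 4 groups lay between 4.01 and 4.07. Both IkL/L DN3 and both IkL/L DN4 arrays were above all 6 WT arrays, and only IkL/L DN3 replicate 1 exceeded its array median.

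The DN3 difference in Tal1 was 1.08 ± 0.22 (SE), a 2.12-fold higher signal, with a limma adjusted p of 0.0545, just outside the threshold of 0.05. It was 0.36 at DN4 (adjusted p = 0.385) and 0.02 at DP (adjusted p = 0.992), and the F test for a change with stage gave an unadjusted p of 0.0182 and an adjusted p of 0.394. The DN3 adjusted p was 0.0125 with 1 probe set per gene, 0.0285 with a trended, robust variance prior and 0.0212 with the replicate number as a block within each genotype. It was 0.00486 without IkL/L DN3 replicate 2, where the difference was 1.45, 0.0161 without the 3 second IkL/L arrays, and 0.0655 without IkL/L DN3 replicate 1, where it was 0.71. Over all alternatives it ran from 0.00486 to 0.494.

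The array with the highest Tal1 signal also had high signal of genes of other blood cells. The mean of 7 myeloid genes was 6.20 on IkL/L DN3 replicate 1 and 5.12 on replicate 2, against 4.86 and 4.87 on the WT DN3 arrays. The neutrophil gene S100a8 read 8.96 on IkL/L DN3 replicate 1, 5.33 on replicate 2, and 4.99 and 5.15 at WT DN3. S100a9, its partner, read 7.27 on IkL/L DN3 replicate 1, 5.66 on IkL/L DN4 replicate 1 and 3.78 to 4.45 on the other 10 arrays. Of the 7 genes, Csf1r and Lyz2 were at or above the median on all 12 arrays, S100a8 on 7, S100a9 on 2, and Cd14, Cebpa and Itgam on 0. The mean of 6 erythroid genes was 5.87 and 5.30 on the IkL/L DN3 arrays against 5.32 and 5.44 at WT DN3. The haem synthesis gene Alas2 read 8.80 and 8.64 on the first IkL/L DN3 and DN4 arrays, 5.65 and 5.85 on the second, and 6.56 to 7.13 on the WT DN arrays. The other 5 differed less. On IkL/L DN3 replicate 1, Gata1 read 6.03, Epor 5.92 and Klf1 5.76, against at most 5.77, 5.81 and 5.62 at WT DN3. Car1 at 4.72 and Hba-a1 at 4.02 lay within their WT DN3 values and below the median on all 12 arrays. S100a8, S100a9 and Alas2 are named for their values, after these were seen. The part of such cells in the Tal1 signal was not tested.

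**Figure D3:**
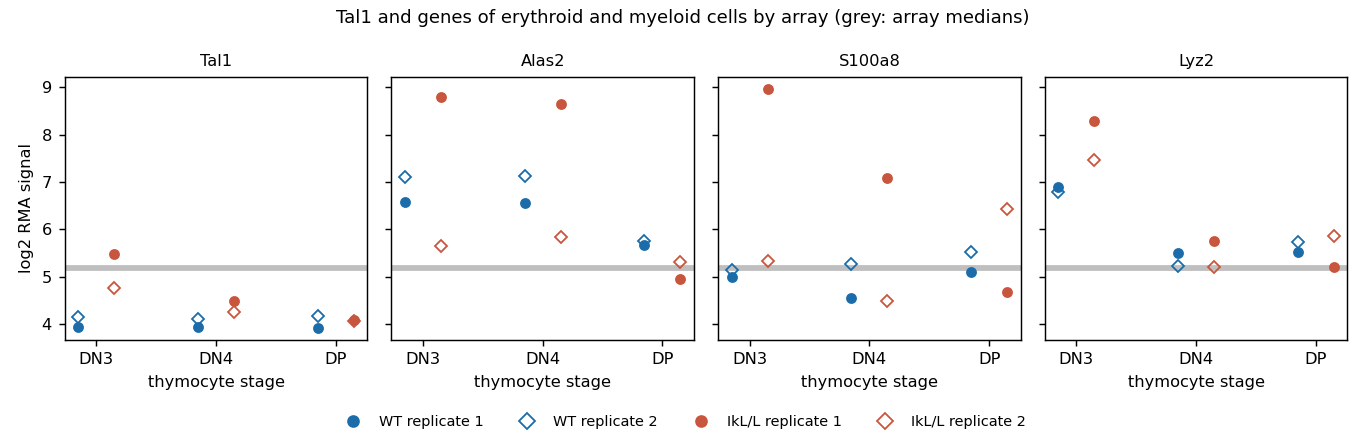
Log2 signal (y axis) of Tal1, Alas2, S100a8 and Lyz2 by stage (x axis), with filled circles for replicate 1, open diamonds for replicate 2 and a grey band for the array medians. IkL/L DN3 replicate 1 is the highest array in all 4 panels, and Lyz2, a lysozyme gene of myeloid cells, read 8.28 and 7.45 at IkL/L DN3 against 6.90 and 6.79 at WT DN3.

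Lyl1, the close relative of Tal1, read 4.64 and 4.69 at WT DN3 and 5.27 and 4.90 at IkL/L DN3. At DN4 it read 4.56 and 4.86 in WT and 4.96 and 4.71 in IkL/L, and at DP 4.77 and 4.96 against 4.99 and 5.21. IkL/L was above WT without overlap at DN3 and DP, where 39.4% and 37.7% of all probe sets had no overlap in either direction. The differences of 0.42, 0.13 and 0.23 had limma adjusted p values of 0.425, 0.706 and 0.736. Lmo2, the bridge of the complex, lay between 4.73 and 5.34 with differences of 0.05, 0.04 and 0.0022, and its groups overlapped at each stage.

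Among 14 listed partners of the TAL1-LMO2 complex, all measured, 0, 1 and 1 were called between genotypes at DN3, DN4 and DP (1.68%, 2.51% and 2.53% of all genes by their brightest set), with 2, 3 and 5 at an unadjusted limma p below 0.05. The called gene was Tcf4, an E protein gene, at 8.71 ± 0.06 in WT and 9.57 ± 0.03 in IkL/L DN4 cells, a difference of 0.86 (adjusted p = 0.0158), and 0.67 higher at DP (adjusted p = 0.0419). At DN3 the Tcf4 difference was 0.60 (adjusted p = 0.091). From DN4 to DP in WT, 3 partners rose and 5 fell, where 36.7% of genes were called. Ssbp2, which stabilises LDB1, rose by 2.13 (adjusted p = 6.12e-06) and the E protein gene Tcf12 by 0.79 (adjusted p = 0.000226). In IkL/L cells 2 rose and 2 fell, where 26.5% of genes were called, with Ssbp2 at 1.60 (adjusted p = 5.36e-05) and Gata3, a T lineage factor, at -0.80 (adjusted p = 0.00544).

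Of 20 other stem and progenitor genes 18 were measured. None was called between genotypes at DN3, 1 at DN4 and 2 at DP, all higher in IkL/L, where 1.68%, 2.51% and 2.53% of all genes were called, with 2, 6 and 2 at an unadjusted limma p below 0.05. Runx1, a master factor of blood stem cells that is also used in thymocytes, read 9.84 ± 0.16 in WT and 10.8 ± 0.11 in IkL/L DN4 cells (difference 0.97, adjusted p = 0.0227). At DP it was 0.98 higher (adjusted p = 0.0174), and at DN3 0.76 higher (adjusted p = 0.0785). Etv6, a repressor needed in stem cells, was 0.74 higher at IkL/L DP (adjusted p = 0.031). From DN3 to DN4, 4 of the 18 fell and none rose in WT, where 3.79% of genes were called. Their log2 changes were -2.28 for Nfe2, a factor of megakaryocytes and red cells, -1.16 for Runx1, -1.05 for Etv6 and -0.64 for Myb, a factor of progenitors and thymocytes (limma adjusted p = 0.00146, 0.00587, 0.00414 and 0.0123). In IkL/L 2 fell, where 1.69% of genes were called, with changes of -2.13 for Nfe2 and -0.96 for Runx1 (adjusted p = 0.00386 and 0.0252).

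Cd44 had the widest range of the members over the 12 arrays. Set 1423760_at read 4.88 and 5.15 at WT DN3, 4.65 and 5.11 at WT DN4 and 6.66 and 6.85 at WT DP. In IkL/L it read 4.88 and 4.47 at DN3, 4.61 and 4.13 at DN4 and 5.20 and 5.40 at DP. Both WT DP arrays were above the other 10 arrays. The order of means was WT DP (6.75 ± 0.13, SD, n = 2), IkL/L DP (5.30 ± 0.14), WT DN3 (5.01 ± 0.19), WT DN4 (4.88 ± 0.32), IkL/L DN3 (4.67 ± 0.29) and IkL/L DN4 (4.37 ± 0.34). The IkL/L DP values were above all DN arrays, and the 4 DN groups each overlapped their neighbour in this order.

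At DP, Cd44 1423760_at was lower in IkL/L by a log2 difference of -1.46 ± 0.22 (SE), 36.4% of the WT signal, with a limma adjusted p of 0.00954. It was the 1 of 19 member sets called at DP, where 1.68% of all sets were called. Set 1434376_at read 6.15 and 6.41 in WT and 5.03 and 5.74 in IkL/L DP cells, a difference of -0.89 (adjusted p = 0.235), without overlap. At DP 37.7% of all sets had no overlap, in either direction. At DN3 and DN4 the differences of 1423760_at were -0.34 and -0.51 (adjusted p = 0.668 and 0.232). The DP call was lost without WT DP replicate 2 or either IkL/L DP array (adjusted p = 0.0614, 0.0877 and 0.0509), with differences of -1.36 to -1.56. The F test for a change with stage gave an unadjusted p of 0.0102 and an adjusted p of 0.339.

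From DN4 to DP, Cd44 rose in both genotypes. In WT, 1423760_at rose 3.67-fold (log2 1.88, limma adjusted p = 0.000137) and 1434376_at 3.35-fold (log2 1.75, adjusted p = 0.00128), calls kept with each of the 12 arrays left out in turn. In IkL/L the 2 sets rose 1.90-fold (log2 0.93, adjusted p = 0.0123) and 2.49-fold (log2 1.32, adjusted p = 0.00919). Both IkL/L calls were lost without IkL/L DN4 replicate 2 (log2 0.69 and 1.19) or DP replicate 2 (log2 0.83 and 0.97), and without the 3 second IkL/L arrays together (log2 0.59 and 0.84, adjusted p = 0.187 and 0.0914). The remaining 2 sets, 1443265_at and 1452483_a_at, stayed between 3.03 and 3.90 and moved with neither genotype nor stage past the threshold. The labels do not say whether CD44, which often serves to gate DN stages, was used in the sort. A list of 6 genes of NK, gamma-delta and innate lymphoid cells had a mean of 5.74 and 5.67 on the WT DP arrays and 5.94 and 6.18 on the IkL/L DP arrays. In that list Gzma read 9.61 and 9.04 at WT DP and 11.4 and 11.5 at IkL/L DP, and the rest differed less. Of the 6 genes, 1 was called between genotypes at DP, higher in IkL/L, where 2.53% of all genes were called. The mean of the 8 DN3-stage genes was 8.61 and 8.77 at WT DP against 9.44 and 9.68 at IkL/L DP. The part of such cells in the Cd44 signal was not tested.

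**Figure D4:**
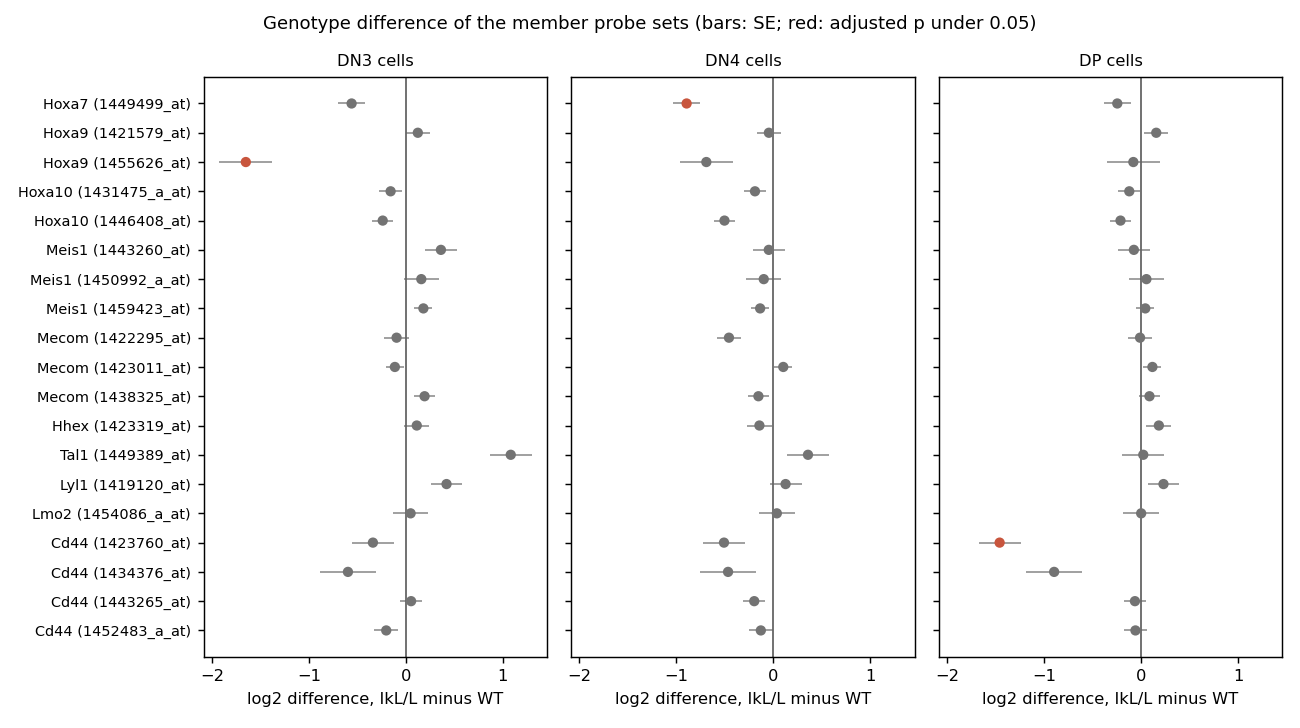
Log2 difference (x axis, IkL/L minus WT) of the 19 probe sets at DN3, DN4 and DP, with bars for the SE of the limma fit and red points for an adjusted p under 0.05. The red points are Hoxa9 1455626_at at DN3, Hoxa7 at DN4 and Cd44 1423760_at at DP, and all 3 lie left of 0.

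Counted over all members, genotype groups were without overlap for 15 of 19 sets at DN3, 13 of 19 at DN4 and 7 of 19 at DP, against 39.4%, 55.3% and 37.7% of all probe sets. The members' median log2 difference was 0.05 at DN3, -0.14 at DN4 and -0.01 at DP, and that of all sets was 0.01, -0.04 and -0.01. At DN4, 15 of the 19 differences were negative, and the share of negative differences over all sets was not counted. The DN4 median was 0.04 over the 24976 sets that passed the brightness filter, which only 7 of the 19 passed. The sign of the DN4 median over all sets thus varied with signal level. Across stages, 5 of 19 sets were called from DN4 to DP in WT (33.6% of all sets) and 2 of 19 in IkL/L (21.4%). From DN3 to DN4 none was called by limma in WT (2.69% of all sets) or IkL/L (1.22%), with 2 and 2 at an unadjusted p below 0.05. The test for a genotype difference that changes with stage called 0 of 19 (0.187% of all sets), with 4 at an unadjusted p below 0.05, namely Hoxa7, Hoxa9 1455626_at, Tal1 and Cd44 1423760_at. These comparisons share arrays.

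The genes whose signal tracked each member most closely over the 12 arrays were taken among 4267 genes (4266 for Cd44) with signal and a range of group means of at least 1. For Hoxa7 they were Fam174b (Pearson r = 0.94), the AP-1 family gene Batf (0.91) and the deacetylase gene Hdac11 (0.91). For Cd44 1423760_at they were the glycosyltransferase gene Mgat5 (0.97), the DNA glycosylase gene Neil1 (0.96) and the interleukin 4 receptor gene Il4ra (0.96). For Hoxa9 1421579_at, which varied little, the closest were Stard8 (0.75), Cd163l1 (0.72) and Stc1 (0.72). The 12 points share 6 groups and their stages, and the values are descriptive.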

How the data were processed

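RNA of 12 sorted thymocyte samples was measured on Affymetrix arrays after a labelling with 2 rounds of amplification. The labels name labelling series with different RNA inputs and do not assign them to samples, so that batch was not tested. The authors made the deposited values, on a log2 scale, with RMA (background correction, quantile normalization and summary of each probe set) per the submitters' processing notes, version not given in the sources used here. Arrays have no read depth, and 2 per group limit the precision.

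The members, gene lists and tests were chosen with earlier results of these data known. All 45037 probe sets but the 62 AFFX controls were fitted in limma 3.58.1 (R 4.3.3), with 1 mean per group over all 12 arrays, empirical Bayes variances (6 residual and 3.49 prior degrees of freedom) and Benjamini-Hochberg adjustment over all probe sets. A probe set was called at an adjusted p under 0.05. The script was tested on simulated data. Symbols came from the platform annotation, where 34958 probe sets had 1 symbol, 932 several and 9209 none, and only sets with 1 symbol were named. Genes outside the members were represented by their brightest probe set, and up to 4 genes per list and comparison were named, by smallest adjusted p among those called. Genes of like pattern were the 3 with the highest Pearson r. Other genes named by value (Hoxa3, Hoxa5, Cd34, Mpo, Cd14, Cebpa, Itgam, S100a8, Lyz2, Alas2, Gzma and Pdgfrb) and Hoxa4 at DN4 were chosen after their values were seen. Promoter windows are from RefSeq (GRCm38.p6).

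Alternatives were a brightness filter (2 or more arrays reaching the array median, which 24976 sets passed), 1 probe set per gene, a second quantile normalization, median centring, a trended robust prior, replicate blocks, only the arrays compared, and leaving out arrays. The block within each genotype and the average over stages were added after the values were seen. Of 15 pairs of groups, 7 had same-numbered arrays whose deviations correlated above 0.1 (range -0.45 to 0.60). Within a genotype, r was 0.27 to 0.36 for the WT pairs and 0.60 for IkL/L DN3 with DN4. It was -0.18 for IkL/L DP with either of these. The main fit did not treat replicate numbers as pairing the samples, and a block within each genotype was fitted as an alternative.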

Additional observations from a re-analysis of the deposited data

How the results depend on the processing

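The size of a member difference was followed under the alternatives only where its unadjusted limma p was below 0.05 in the main fit. None of these changed sign, an outcome that this choice favours. The calls per comparison did change. At DN3 the 1 called set became 2 with a trended robust prior (Tal1 joined) and 2 with the replicate block within each genotype, and 0 with only the arrays compared. Without the 3 second IkL/L arrays the count stayed at 1, but the called set was Tal1 in place of Hoxa9. At DN4, 1 became 2 with 1 probe set per gene (Hoxa10 joined) and 0 without the 3 second IkL/L arrays. The WT step from DN3 to DN4 went from 0 to 1 with 1 probe set per gene (Meis1), and that from DN4 to DP from 5 to 3 under the brightness filter, which leaves Meis1 and Mecom untested. The IkL/L step from DN4 to DP went from 2 to 1 with 1 probe set per gene, which tests a single Cd44 set, and to 0 without the 3 second IkL/L arrays. For the other changes the cause was not tested.

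With 1 array left out at a time, the called sets numbered 0 to 1 at DN3, 0 to 2 at DN4, 0 to 1 at DP, 0 to 0 and 2 to 5 for the WT steps into DN4 and into DP, 0 to 1 and 0 to 2 for the same IkL/L steps, 2 to 6 for the average over stages and 0 to 0 for the test of change with stage. The WT step from DN4 to DP fell to 2 without WT DN4 replicate 2 and to 3 without either WT DP array, the average over stages to 2 without the second array of either DN4 group, and the IkL/L step from DN3 to DN4 rose to 1 without IkL/L DN3 replicate 2. The replicate number as a block common to both genotypes left all counts as they were, 1, 1 and 1 at DN3, DN4 and DP, 0 and 5 for the WT steps, 0 and 2 for the IkL/L steps and 4 for the average. Same-numbered arrays shared a deviation among the WT groups (r of 0.27 to 0.36) and between IkL/L DN3 and DN4 (0.60), and not in all other pairs. A lone array left in a group is assumed to vary like the other groups. Differences between signals near the floor may understate those of RNA or be mostly of background, which was not tested.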
